A study of Mus musculus with 11 samples.

Results

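Rag1, Rag2, Dntt, Ptcra, Themis and Arpp21 were followed as genes of immature thymocytes in the RNA-seq libraries of mouse airway. They were picked as 6 of the 21899 genes listed, matched by Ensembl identifier, with earlier values of these libraries known. Their levels are therefore a description, and the group tests and outlier checks that include some of them, given further on, support nothing about them. Male BALB/c mice of WT genotype were compared in 3 groups: PBS (3 libraries), nonsensitised mice that received PBS only, OVA/LPS/Vehicle (labelled OL, 4 libraries), mice sensitised with ovalbumin and alum, challenged with ovalbumin in the nose, given LPS in the nose and treated with vehicle, and OVA/LPS/GGsTop (OLG, 4 libraries), mice handled in the same way that received GGsTop, an inhibitor of γ-glutamyl transferase, in place of vehicle. The mice were young adults killed at a single end point. The labels name trachea as the tissue, whereas the methods of the study describe larger airways freed bluntly from the lung, with the trachea left off. The OL libraries carry the labels 12, 34, 56 and 78, and whether these stand for pooled mice is not stated.

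Developing T cells in the thymus assemble their receptor genes by V(D)J recombination. RAG1 and RAG2 form the enzyme that cuts the DNA, and terminal transferase, encoded by Dntt, adds bases at the open ends before they are joined. A finished β chain is first tested with pre-Tα, encoded by Ptcra, and later the double positive thymocyte, which carries both CD4 and CD8, is selected on the epithelium of the thymic cortex with the help of THEMIS, a protein of T cell receptor signalling. Arpp21 encodes a phosphoprotein that binds RNA and is known from thymocytes and from neurons. Mature T cells have switched off Rag1, Rag2 and Dntt, and progenitors of B cells use these genes as well, so neither cell set is marked by a single one of them.

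A single library held nearly all of the signal. Library OL 12 had the highest level of 5 of the 6 genes, and Ptcra was the exception. It exceeded the next library more than 2-fold for these 5 genes, and more than 5-fold for all of them but Themis. Over 14004 genes that averaged 0.5 FPKM or more (fragments per kilobase of exon, scaled to the total of the library), 11.2% were highest in OL 12, 0.664% were more than 2-fold and 0.0785% more than 5-fold above the next library there. In the other 10 libraries between 0 and 31 genes stood more than 2-fold above the next library, against 93 in OL 12. These values chose the genes, so nothing is read from their count. Depth was alike, with 14513136 to 18632382 fragments implied per library and 15501855 in OL 12.

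Promoter sequences are shown for the 4 genes with a single RefSeq start window, to set the nearest bases of the recombination genes beside those of Ptcra, which did not follow them. Each run holds the 250 bases before the start site on the strand of the gene (GRCm38.p6), and capitals mark CAGGTG or CAGCTG, letters bound by E proteins, and TGTGGT, letters bound by RUNX factors, searched on both strands. The windows are chr2:101649533-101649782 on the minus strand for Rag1, chr2:101624462-101624711 on the plus strand for Rag2, chr19:41029025-41029274 on the plus strand for Dntt and chr17:46763713-46763962 on the minus strand for Ptcra.
Rag1: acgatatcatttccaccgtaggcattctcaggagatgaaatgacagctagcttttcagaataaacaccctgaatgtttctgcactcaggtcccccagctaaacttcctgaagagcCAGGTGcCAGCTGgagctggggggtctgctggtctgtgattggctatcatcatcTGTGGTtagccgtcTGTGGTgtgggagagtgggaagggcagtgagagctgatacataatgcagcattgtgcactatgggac
Rag2: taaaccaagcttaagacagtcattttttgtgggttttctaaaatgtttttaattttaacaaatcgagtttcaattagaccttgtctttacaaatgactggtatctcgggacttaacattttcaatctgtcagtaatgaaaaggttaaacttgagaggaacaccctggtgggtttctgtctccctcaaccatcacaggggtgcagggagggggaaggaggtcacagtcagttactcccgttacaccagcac
Dntt: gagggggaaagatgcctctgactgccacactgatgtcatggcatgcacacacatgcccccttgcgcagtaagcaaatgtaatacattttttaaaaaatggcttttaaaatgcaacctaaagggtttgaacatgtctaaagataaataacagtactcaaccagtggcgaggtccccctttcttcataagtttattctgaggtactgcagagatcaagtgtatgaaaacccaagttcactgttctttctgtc
Ptcra: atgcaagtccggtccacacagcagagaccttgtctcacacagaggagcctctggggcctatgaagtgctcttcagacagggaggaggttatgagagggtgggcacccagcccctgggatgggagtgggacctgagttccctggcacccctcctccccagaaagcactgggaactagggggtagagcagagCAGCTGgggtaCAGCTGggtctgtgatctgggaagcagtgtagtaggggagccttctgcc
Rag1 held CAGGTG once, CAGCTG once and TGTGGT at 2 places, all on the strand of the gene, and Ptcra held CAGCTG at 2 places. None of these letters occurred in the windows of Rag2 and Dntt, which were raised in the same library as Rag1. Among 32851 RefSeq windows of the same length, 17.2% held CAGGTG, 13.0% held CAGCTG and 14.0% held TGTGGT, or their reverse complements. The matches are letters only and were not linked to binding here. Themis and Arpp21 have 2 and 9 start windows and are not printed.

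Rag1, the catalytic subunit of the recombinase (chromosome 2, 101638282 to 101649501, minus strand, GENCODE M21 on GRCm38), had 8.53 FPKM in OL 12 (874 fragments, 95% Poisson interval 7.98 to 9.12 FPKM). The other OL libraries had 0.0287 FPKM in 34, 0.0285 in 56 and 0.0272 in 78, which is 3 fragments each. PBS libraries 1, 2 and 3 had 0.0201, 0.0976 and 0.0893 FPKM. PBS 2 and 3 had 10 and 11 fragments, with 95% Poisson intervals of 0.0468 to 0.180 and 0.0446 to 0.160 FPKM. These intervals overlapped those of the other OL libraries, so PBS 2 and 3 cannot be ordered against OL 34, 56 and 78. OLG libraries 1 and 4 had no fragment, and OLG 2 and 3 had 0.0209 and 0.0192 FPKM. The intervals of OLG 1 and 4 ended at 0.0371 and 0.0377 FPKM, below those of PBS 2 and 3. All of these intervals cover counting error only. The share of Rag1 in OL 12 was 247 times that in the pooled other 10 libraries (exact 95% interval 177 to 355, counting error only), where 36 fragments were found in all.

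Rag2 encodes the partner of RAG1 and lies beside Rag1 on chromosome 2 (101624718 to 101632529, plus strand). Its level was 1.11 FPKM in OL 12, from 59 fragments (95% Poisson interval 0.846 to 1.43 FPKM). PBS 3, OL 34 and OL 56 had 1 fragment each, at 0.0157, 0.0185 and 0.0183 FPKM, and the other 7 libraries, all 4 of OLG among them, had none. For a library with 0 fragments the 95% Poisson interval reached 3.69 fragments. For Rag2 this was 0.0645 FPKM in OL 78 and up to 0.0742 FPKM in OLG 2. Per length, Rag2 in OL 12 reached 0.130 of the level of Rag1. The gene B230118H07Rik overlaps both Rag genes and shares 80 bases of exon with Rag1 and 208 with Rag2. Strand is not stated for the counting, so fragments from those bases cannot be assigned. B230118H07Rik itself had 4.42 FPKM in OL 12 and 2.04 to 5.50 FPKM in the other libraries, so it did not stand apart there.

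Dntt, the terminal transferase (chromosome 19, 41029275 to 41059525, plus strand), was the highest of the 6 genes per length in OL 12, with 13.8 FPKM from 491 fragments (12.6 to 15.1 FPKM). Among the other OL libraries, 34 had 0.0276 FPKM, 56 had 0.301 and 78 had 0.209. Dntt was thus found again, at a low level, in OL 56 and OL 78 with 11 and 8 fragments. PBS 1 had none, PBS 2 had 0.113 FPKM and PBS 3 had 0.0234. OLG 1 had 0.0869 FPKM and OLG 2 had 0.0301, and OLG 3 and 4 had none. The share of Dntt in OL 12 was 172 times that in the pooled other libraries (118 to 260).

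Ptcra, which encodes pre-Tα of the earlier thymocyte (chromosome 17, 46755663 to 46763712, minus strand), did not follow the recombination genes. It had 0.151 FPKM in OL 12 and 0.161 FPKM in OLG 2, which is 3 fragments in each. PBS 2 had 0.101 FPKM, and OLG 1 and OLG 3 had 0.0518 and 0.0494 FPKM. PBS 1 and 3, OL 34, 56 and 78, and OLG 4 had none. With 3 fragments against 7 in the other 10 libraries, the ratio was 4.36 with an interval from 0.728 to 19.1, so a difference of OL 12 was not detectable for Ptcra at this depth.

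Themis (chromosome 10, 28668360 to 28883818, plus strand) was found in every library. OL 12 had 1.72 FPKM from 311 fragments (1.53 to 1.92 FPKM), and OL 34, 56 and 78 had 0.184, 0.510 and 0.359 FPKM. PBS 1, 2 and 3 had 0.182, 0.364 and 0.0551 FPKM. OLG 1 to 4 had 0.131, 0.236, 0.109 and 0.110 FPKM. Themis is also used by mature T cells, and outside OL 12 its PBS and OL ranges overlapped. Its ratio of OL 12 to the pooled rest was 7.70 (6.63 to 8.95), lower than the intervals of Rag1, Rag2 and Dntt.

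Arpp21 (chromosome 9, 112065091 to 112235938, minus strand) had 0.448 FPKM in OL 12 from 121 fragments (0.372 to 0.535 FPKM). Every other library had 0 to 9 fragments, and OL 56 was next at 0.0324 FPKM. The PBS libraries had 0 to 0.0185 FPKM and the OLG libraries 0.00364 to 0.0237 FPKM, so these groups overlapped. Its ratio of OL 12 to the rest was 34.2 (23.4 to 51.1). Neuron genes were also highest in OL 12, as given below, and their part in the level of Arpp21 was not tested.

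**Figure D1:**
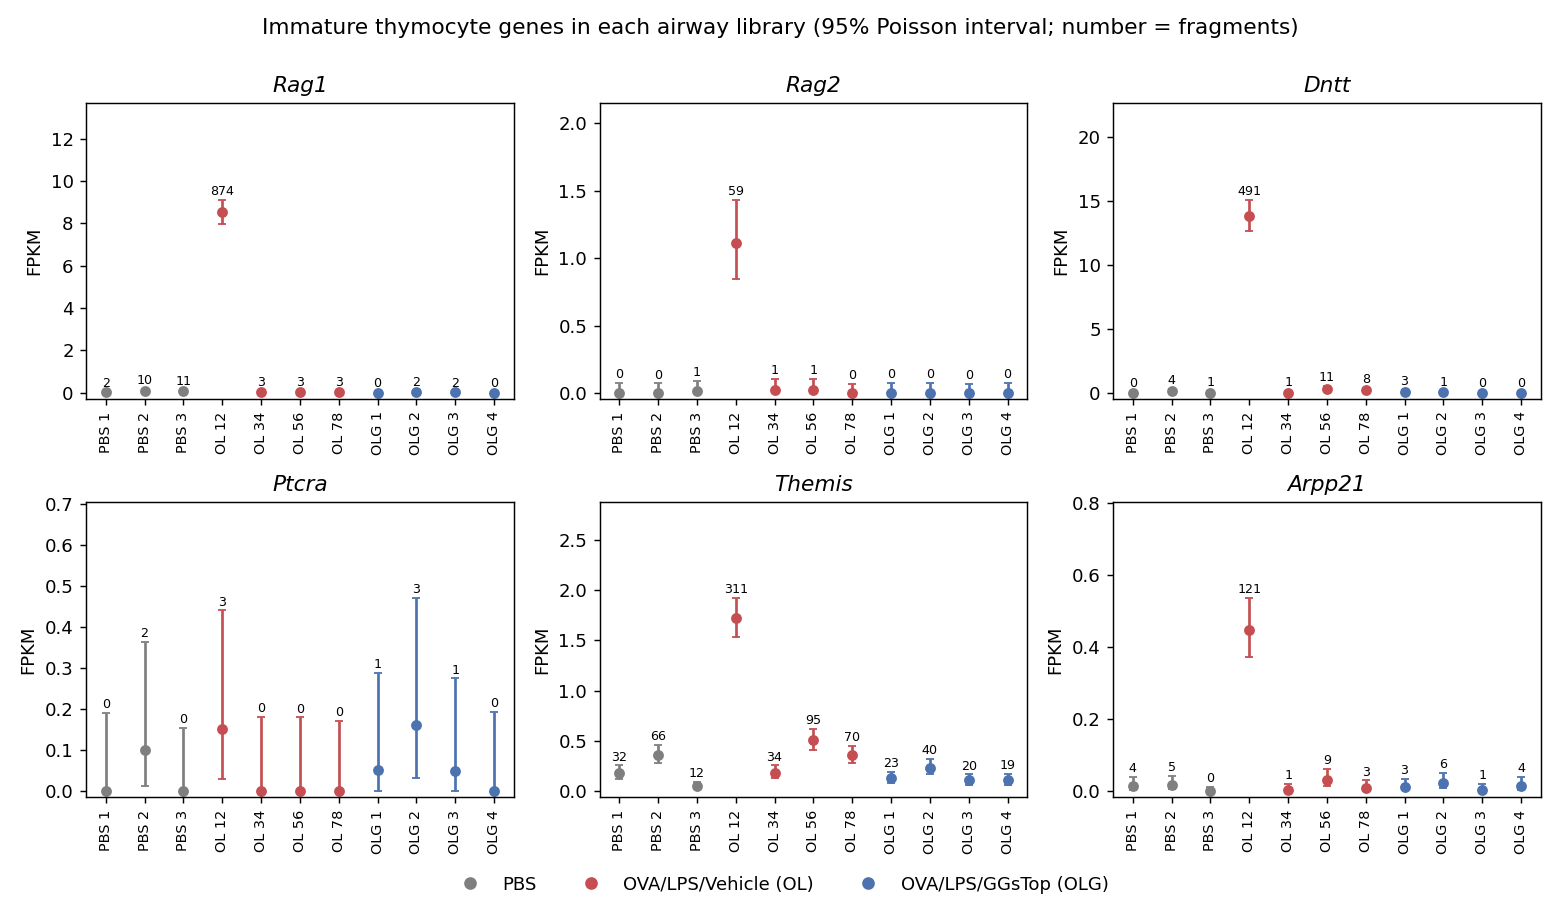
FPKM (vertical axis, linear, a scale per panel) of the 6 genes in each of the 11 libraries (horizontal axis), with exact 95% Poisson intervals and the number of fragments above each point. OL 12 stands above the other 10 libraries for 5 genes, with 874 fragments of Rag1 and 491 of Dntt, and Ptcra has at most 3 fragments in any library.

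The order of levels per length in OL 12 was Dntt, Rag1, Themis, Rag2, Arpp21 and Ptcra. The Poisson intervals of neighbours in this order did not overlap, except those of Arpp21 (0.372 to 0.535 FPKM) and Ptcra (0.0311 to 0.441 FPKM). The exon lengths behind these values merge all transcripts of a gene, 17428 bases for Arpp21 and 11682 for Themis, against 2292 for Dntt and 6608 for Rag1. Long merged exons lower the value per length. The 6 genes summed to 25.8 FPKM in OL 12, and to 0.263 to 0.890 in the other OL libraries, 0.184 to 0.694 in PBS and 0.125 to 0.472 in OLG. In bulk tissue, fewer cells of a type and less RNA per cell cannot be told apart. OL 56 had the next highest sum.

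Across the 11 libraries, the log2(FPKM + 1) values of Rag1, Rag2, Dntt, Themis and Arpp21 correlated with each other at Pearson r = 0.915 to 0.999. Ptcra correlated with them at 0.527 to 0.563. Without OL 12, Rag1 correlated with Rag2 at 0.285 and with Dntt at 0.0978 over the other 10 libraries, so the likeness of the recombination genes rested on 1 library. Dntt and Themis still correlated at 0.868 without it, and Themis and Arpp21 at 0.737, both over levels near those of a few fragments for one of the pair. These are descriptions over 11 libraries of 1 table, with no test.

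The group comparisons asked what OVA/LPS changed against PBS and what GGsTop changed on top of it. Only Rag1 and Dntt passed the minimum of 0.5 FPKM mean, and both did so through OL 12 alone. Neither was called in any comparison at an adjusted p under 0.05 (limma, Benjamini-Hochberg), against 38% of 14004 genes called for OL against PBS (15.9% higher and 22.1% lower), 8.71% for OLG against OL (6.9% higher and 1.81% lower) and 2.88% for OLG against PBS (2.06% higher and 0.821% lower). Nothing is read from this, since the comparison of the groups rests on the same library as the choice of the genes. OLG against PBS had 403 calls, and 62 in a fit of the 6 libraries numbered 1 to 3 with the replicate number as a block. The same 6 libraries without the block, a fit chosen after seeing the data, gave 14.

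On the log2(FPKM + 1) scale, which understates the change of low genes, OL against PBS differed by 0.75 (SE 0.64) for Rag1, 1.08 (SE 0.73) for Dntt, and 0.43 (SE 0.25) for Themis. Without OL 12 these differences were -0.06, 0.17 and 0.17. The difference of Rag1 thus changed sign and those of Dntt and Themis shrank. OLG against OL differed by -0.83 for Rag1, -1.10 for Dntt and -0.49 for Themis, and by -0.03, -0.19 and -0.23 without OL 12. Rag2 and Arpp21 differed by 0.28 and 0.13 for OL against PBS, and by 0.01 each without OL 12. For OLG against PBS, which does not use that library, the differences of all 6 genes lay between -0.08 and 0.04 on this scale. With a pseudocount of 0.1 they lay between -0.59 for Rag1 and 0.31 for Ptcra. Levels this low rest on few fragments, with a mean Rag1 of 0.069 FPKM in PBS and 0.010 FPKM in OLG. The comparisons share groups and are not independent of each other.

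**Figure D2:**
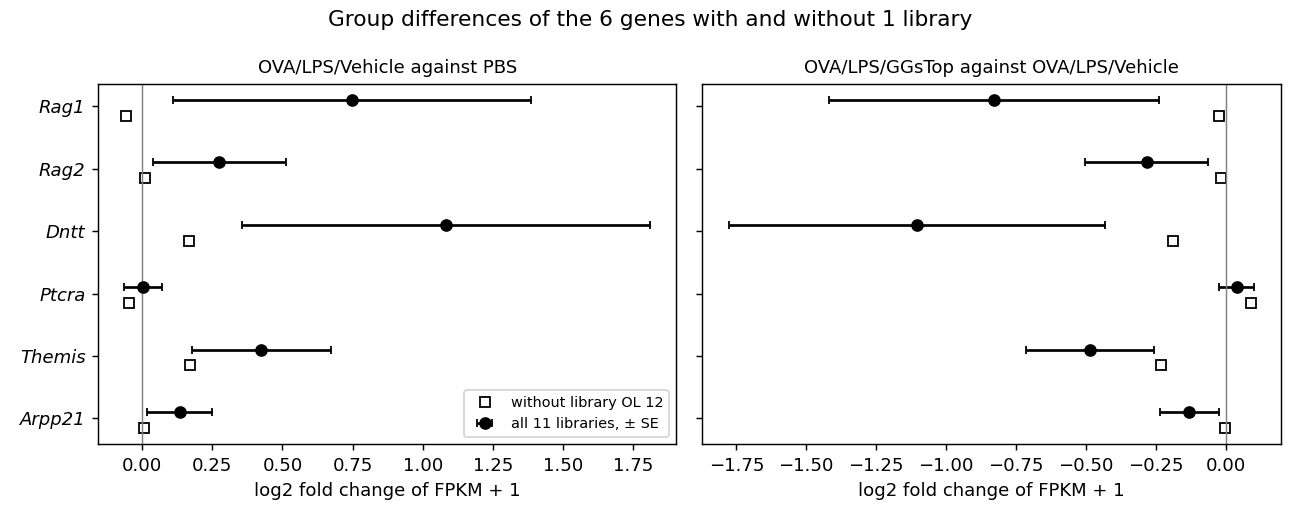
Log2 fold change of FPKM + 1 (horizontal axis) of each gene for OVA/LPS/Vehicle against PBS and OVA/LPS/GGsTop against OVA/LPS/Vehicle, filled circles with the SE from all 11 libraries and open squares without OL 12. Rag1 moves from 0.75 to -0.06 in the first comparison and Dntt from -1.10 to -0.19 in the second.

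Other genes of double positive thymocytes were also raised in OL 12. Of 18 listed genes 15 were tested and 11 of these were highest in OL 12, against 11.2% of all genes tested, with a median log2 difference from the median of the other 10 libraries of 0.65, against 0.00 over all genes. Cd8a and Cd8b1, which encode the chains of CD8, had 16.0 and 21.1 FPKM in OL 12, and 0.539 to 4.20 and 0.820 to 5.70 FPKM elsewhere. Cd4 had 11.4 FPKM against 2.06 to 5.66. The 3 coreceptor genes were thus present in every library, and PBS 2 was the next highest for each. Ccr9, a homing receptor of thymocytes, had 2.28 FPKM against at most 0.415, the acetylcholine receptor gene Chrna9 had 1.36 against at most 0.332, and the signalling adaptor gene Sh2d1a had 1.02 against at most 0.246. These 6 genes were singled out after their values were seen.

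The share of Cd8a in OL 12 was 9.96 times that in the pooled other libraries (9.08 to 10.9), and that of Cd4 3.37 times (3.10 to 3.67), both lower than for Rag1. The highest genes of this list by mean, Bcl2l1, a survival gene, Rmnd5a and Cd2, had 15.1, 28.8 and 14.7 FPKM in OL 12, against medians of 22.7, 20.4 and 9.46 FPKM in the other libraries. Of the 15 genes, 2 rose and none fell in OL against PBS, 13.3% of the list against 38% of all genes. The median log2 fold change was 0.19, against -0.01 over all genes. Mns1 rose by 1.38 (SE 0.21, adjusted p = 0.00348, limma) and Rmnd5a by 0.46 (adjusted p = 0.0240, limma). Mns1 is also a gene of motile cilia, and Foxj1 and Tekt1 of ciliated cells rose in the same comparison. Without OL 12 the calls were Mns1, which rose, and Ly6d, which fell, and the median was -0.06. In OLG against OL, Bcl2l1 rose by 0.56 (adjusted p = 0.0372), with a list median of -0.25, and no gene was called without OL 12. With GC content removed, Mns1 kept its call and Rmnd5a and Bcl2l1 did not.

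Genes of the pre-T cell receptor and T cell receptor pathway followed in part. In OL 12, 14 of 24 were the highest of 11 libraries (58.3%, against 11.2% of all genes), with a median log2 difference of 0.47. Lck, the kinase bound to CD4 and CD8, had 20.7 FPKM against 3.94 to 10.5, the adaptor gene Lat had 11.5 against 1.98 to 4.92, and Cd3g had 10.9 against 1.88 to 5.55. These were 3.22, 3.44 and 3.35 times the pooled other libraries. Grap, Grb2 and Ptpn11, the highest of the list by mean, are used by many cells and had 35.0, 38.9 and 22.7 FPKM in OL 12, against medians of 46.7, 35.2 and 25.8 FPKM. In OL against PBS 5 of the 24 genes were called, 20.8% against 38% of all genes. Nck1 rose by 0.61, and 4 genes fell, among them Plcg1 by 0.69, Ptpn6 by 0.44 and Ptpn11 by 0.30. The list median was 0.01, and -0.25 without OL 12, where Syk fell too. With GC content removed, Ptpn11 kept its call, and Nck1, Plcg1 and Ptpn6 did not. Without OL 12, Syk rose in OLG against OL. None of the 24 was called in the other comparisons with all libraries, by limma, where 4319 genes for OLG against OL and 2873 for OLG against PBS had an unadjusted p under 0.05.

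Of the transcription factors of thymocytes, 9 of 21 tested were highest in OL 12, 42.9% against 11.2% of all genes. Tcf7, which encodes TCF1, had 43.1 FPKM against 7.41 to 20.8, Satb1 had 5.27 against 1.21 to 2.31, and Bcl11b, a gene of T lineage commitment, had 3.88 against 0.602 to 1.87. Id3, Ets2 and Ets1, the highest by mean, had 73.9, 34.7 and 40.0 FPKM in OL 12, inside the range of the other libraries. The list median in OL against PBS was -0.21, and -0.39 without OL 12. In this comparison 2 factors rose and 8 fell, 47.6% of the list against 38% of all genes. The 5 with the smallest p were Myb, which rose by 1.54 (SE 0.14), Tcf3, Notch3 and Notch1, which fell by 0.83, 1.17 and 1.34, and Runx1, which rose by 0.74. In OLG against OL, Notch1 and Notch3 rose by 1.07 and 0.70 and Myb fell by 0.57, and of these Notch1 alone was called without OL 12. Against PBS, Myb was higher in OLG by 0.97 and Ets1 lower by 0.83. With GC content removed, Myb, Tcf3, Notch1, Notch3, Runx1 and Ets1 kept their calls in OL against PBS, so that 4 of the 8 falls remained, and none of the 3 calls did in OLG against OL. These factors act in many other cells of the airway, and PBS 3 held the highest Notch1 and Notch3 of all libraries.

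The joining step of V(D)J recombination uses repair proteins that every cell has. Of 18 genes 6 were highest in OL 12, 33.3% against 11.2% of all genes, and none was more than 2-fold above the next library. The median log2 difference of the list was 0.17. Hmgb2, a DNA bending protein that assists the RAG enzyme, had 27.6 FPKM in OL 12, and OL 56 was close at 25.3. Hmgb1 had 27.3 FPKM in OL 12 and up to 33.2 FPKM elsewhere, and the histone gene H2afx had 25.4 FPKM against at most 21.7. In OL against PBS 4 genes rose and 3 fell, 38.9% of the list against 38% of all genes tested, and the same 7 were called without OL 12. Hmgb2 rose by 0.94 (SE 0.18, adjusted p = 0.00528), Xrcc4 by 0.61 and Hmgb1 by 1.27, and the polymerase genes Polm and Poll fell by 0.75 and 0.52. Hmgb2 fell by 0.90 in OLG against OL (adjusted p = 0.0198, limma), and was called without OL 12 as well. With GC content removed, Polm alone kept its call. No gene of this list was called in OLG against PBS, where 2873 of all genes had an unadjusted p under 0.05 by limma.

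The summed levels of mature T cell and B cell genes in OL 12 lay inside the ranges of the other libraries, although single T cell genes were highest there. The median log2 difference of OL 12 from the other libraries was 0.34 for the mature T cell list, 0.61 for the B lineage progenitor list and 0.78 for the mature B cell list, against 0.65 for the double positive list, and no difference between lists was tested. The mature T cell list summed to 408 FPKM in OL 12, inside the 267 to 508 FPKM of the other libraries. Of 15 tested genes 5 were highest in OL 12, 33.3% against 11.2% of all genes. Among these were Cd3e (3.91 FPKM, at most 2.43 elsewhere), Cd5 (2.998, at most 2.30), Cd28 (2.97, at most 1.94) and Cd6 (1.69, at most 1.39), named after their values were seen. The shares of Cd3e, Cd5, Cd28 and Cd6 were 3.03, 2.56, 3.01 and 2.33 times those in the pooled other libraries, and that of Cd4 was 3.37 times. The sum of the list came mostly from other genes. Klf2 and S1pr1, which T cells switch on when they leave the thymus and endothelium uses as well, had 99.2 and 75.0 FPKM in OL 12 against medians of 150 and 107 FPKM, and Gimap4 had 88.6 against a median of 77.99. Il7r rose by 0.72 in OL against PBS, a call that was lost without OL 12 and with GC content removed, and Ccr7 and Il2rb fell by 1.20 and 0.61 (list median -0.11, and -0.28 without OL 12). Ccr7 and Il2rb were also lower in OLG than in PBS, by 1.43 and 0.67. No gene of this list was called in OLG against OL by limma (list median -0.31, all genes 0.03), where 4319 of all genes had an unadjusted p under 0.05.

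B cell precursors also express Rag1 and Dntt. Of the defining genes of the surrogate light chain in the B lineage progenitor list, Vpreb1 had 0.108 FPKM in OL 12 and 0.0564 to 0.628 FPKM elsewhere. Igll1 had 0.0596 FPKM in OL 12 against at most 0.194, and Vpreb2 was at 0 in all 11 libraries. Vpreb1 and Igll1 had 2 fragments each in OL 12. Their ratios to the pooled other libraries were 0.399 (0.0471 to 1.52) and 0.885 (0.101 to 3.58), so a difference of OL 12 was not detectable at this depth. Of 7 genes of this list tested, 2 were highest in OL 12, 28.6% against 11.2% of all genes. The whole list summed to 122 FPKM in OL 12, against 60.4 to 125 FPKM elsewhere. Most of that sum came from genes shared with mature B cells, Cd79a (40.3 FPKM) and Cd79b (32.0 FPKM), and from Vpreb3 (25.3 FPKM). In OL against PBS, Vpreb3 and Blnk rose by 0.82 and 0.59 (Blnk not without OL 12 or with GC content removed), and Vpreb3 was higher in OLG than in PBS by 1.24. The mature B cell list, led by Cd37, Fcmr and Fcer2a, summed to 72.5 FPKM in OL 12 and to 20.7 to 83.3 FPKM elsewhere. Cd37 was lower in OL and in OLG than in PBS, by 0.78 and 0.85, and Fcmr was lower in OLG by 1.56. With GC content removed, Cd37 differed by -0.45 in OL against PBS and was not called, and both calls in OLG were kept.

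Genes of the thymic epithelium, the stroma on which thymocytes mature, were raised in the same library. Prss16, a protease of the thymic cortex, had 6.91 FPKM in OL 12 and 0.0463 to 0.445 FPKM elsewhere, a ratio of 40.7 (33.0 to 50.5). Psmb11, the proteasome subunit of cortical epithelium, had 0.781 FPKM against at most 0.0693, a ratio of 65.6 (32.3 to 151). The chemokine gene Ccl25 had 3.35 FPKM against 0.519 to 1.18, and Tbata had 9.25 against 1.02 to 3.84. Foxn1, the master factor of this epithelium, had 0.181 FPKM from 9 fragments, and OL 56 was near at 0.137. Aire, of the thymic medulla, was higher in OL 56 (0.361 FPKM) than in OL 12 (0.236 FPKM). Prss16, Psmb11, Ccl25, Foxn1 and Aire were singled out after their values were seen. Of 5 genes tested 4 were highest in OL 12, against 11.2% of all genes tested. Prss16, one of these 4, reached the minimum mean only through OL 12, so its place was fixed in advance.

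The sum of that list, 44.7 FPKM in OL 12, lay inside the range of 21.9 to 67.9 FPKM of the other libraries. Its largest part was Dll4, which vessels also use, with 18.6 FPKM in OL 12 and up to 63.3 FPKM in PBS 3. Dll4 fell by 1.36 in OL against PBS (SE 0.28, adjusted p = 0.00659, limma). Ly75 had 4.78 FPKM in OL 12 and 2.93 to 4.39 FPKM elsewhere. No other gene of the list was called in any comparison.

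Markers of further tissues also moved with OL 12, and their part in the levels of the 6 genes was not tested. Over all genes tested, 11.2% were highest in OL 12. All 8 tested neuron genes, led by Stmn2, Gap43 and Tubb3, were highest there, and the list summed to 147 FPKM against 23.8 to 54.1 elsewhere. Their median log2 fold change in OL against PBS was 0.97, and 0.51 without OL 12, with no gene called in either. The fat list, led by Cfd, Ucp1 and Cidea, summed to 754 FPKM against 20.3 to 384 FPKM, with 5 of 7 genes highest in OL 12. Of 20 proliferation genes tested, led by Pcna, Mcm4 and Mcm3, 16 were highest in OL 12, and the list summed to 127 FPKM against 67.1 to 107 FPKM. In that list 4 genes rose and 1 fell in OL against PBS, 25% of the genes tested against 38% of all genes. Without OL 12 the counts were 2 and 2. None of these 5 calls was kept with GC content removed. Pcna fell by 0.39 in OLG against OL, a call that was lost without OL 12. The airway and lung list, led by Scgb1a1, Sftpc and Scgb3a1, was not highest in OL 12 for any of its 12 genes, and summed to 38126 FPKM there, against 37142 to 58407 FPKM elsewhere. In OL against PBS, 4 of its genes rose (Foxj1, Tekt1, Epcam and Scgb3a1) and Sftpb fell, 41.7% of the list against 38% of all genes.

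Other tissues did not follow the 6 genes. The thyroid list, led by Tg, Iyd and Slc5a5, summed to 99.6 FPKM in OL 12, but to 189 and 334 FPKM in OL 34 and OL 56 and at most 7.66 FPKM in the other 8 libraries. The parathyroid list, led by Pth, Casr and Gcm2, gave 6.02, 92.1 and 224 FPKM in the same 3 libraries, and at most 0.538 FPKM in the rest. Lymph node genes, led by Ccl21a, Cxcl13 and Glycam1, summed to 125 FPKM in OL 12, but to 170 FPKM in PBS 2 and 133 FPKM in OL 56, where Rag1 was at 0.0976 and 0.0285 FPKM. None of its 4 tested genes was called in any comparison by limma. The skeletal muscle list (Ckm, Acta1 and Tnnt3) and the cardiac muscle list (Myl7, Actc1 and Myh6) summed to 44.2 and 1166 FPKM in OL 12, and no tested gene of either was highest there. In OL against PBS, 15.9% of all genes tested rose and 22.1% fell. Of these lists, 2 of 5 thyroid, 1 of 1 parathyroid, 1 of 6 skeletal muscle, 2 of 6 cardiac muscle and 1 of 7 fat genes rose and none fell. Without OL 12 the counts were 4 of 5, 1 of 1, 1 of 6, 0 of 6 and 0 of 7. With GC content removed, the calls kept were 1 thyroid, 0 parathyroid, 1 skeletal muscle, 1 cardiac muscle and 0 fat genes. In OLG against OL, Tg alone of these tissue lists was called, and it fell by 5.10, a call that was lost without OL 12 and with GC content removed.

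**Figure D3:**
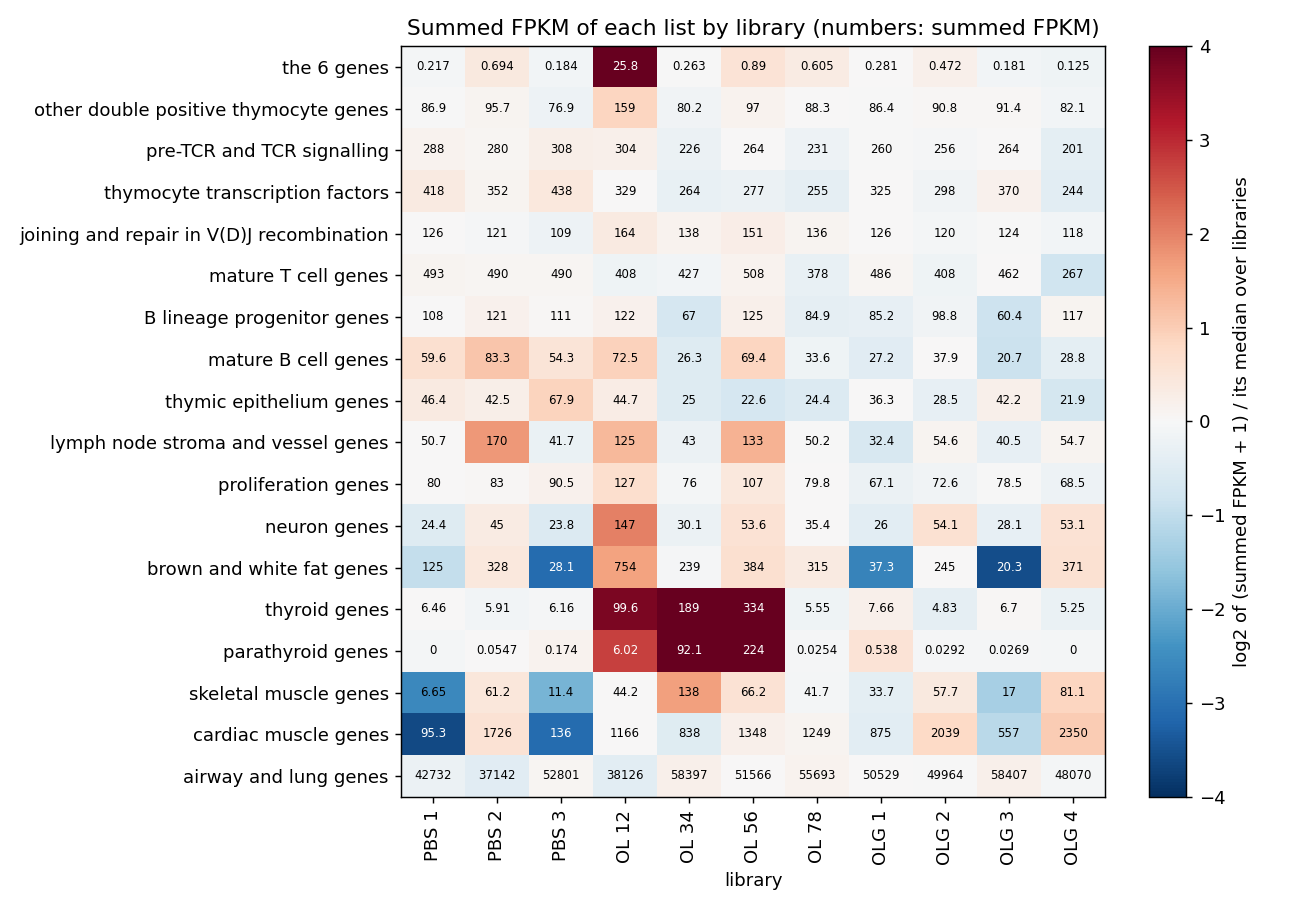
Summed FPKM of each list (rows) in each library (columns), as printed numbers, with colour for the log2 of (sum + 1) over its median across libraries. The 6 genes reach 25.8 FPKM in OL 12 and at most 0.890 elsewhere, and neuron and fat genes are also highest in OL 12, whereas thyroid and parathyroid genes are highest in OL 56.

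The genes most alike the 6 genes were ranked by Pearson r over the 11 libraries with the mean of the standardised log2(FPKM + 1) of Rag1, Rag2, Dntt and Themis, the 4 with a mean of at least 0.1 FPKM. Th, tyrosine hydroxylase of catecholamine neurons, came first among 14002 genes (r = 0.988), with 19.5 FPKM in OL 12 and at most 0.291 FPKM elsewhere. All genes ranked averaged 0.5 FPKM or more over the libraries. Th, Prss16 and Omp, at most 0.291, 0.445 and 0.384 FPKM outside OL 12, did so only through OL 12. Their likeness to a pattern set by OL 12 was thus largely fixed in advance by that minimum. Ddc (0.975), Dbh (0.955) and Slc18a2 (0.953), enzymes and a transporter of catecholamines, were also among the first 10. Dbh had 25.1 FPKM in OL 12 and at most 1.20 FPKM elsewhere. The thymic Prss16 was among them too (0.978). Gbp5 (0.961) and Tgtp1 (0.940), interferon-induced GTPases, Omp (0.953) and Gm4070 (0.944) also stood in this list.

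The list for Rag1 alone held 8 of the first 10, with Gm12185 and Cd274, which encodes PD-L1, in place of Gm4070 and Tgtp1. Cd274 had 19.7 FPKM in OL 12 and 4.74 to 7.74 FPKM elsewhere, and Gm12185 had 2.36 and at most 0.919 FPKM. Without OL 12 the r of Th and Prss16 with the thymocyte pattern fell to -0.09 and -0.20, and that of Gbp5 was 0.77. The ranking thus rests on what OL 12 held in excess, genes of catecholamine neurons and thymic epithelium among them, and does not show which of these genes vary together beyond that library.

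**Figure D4:**
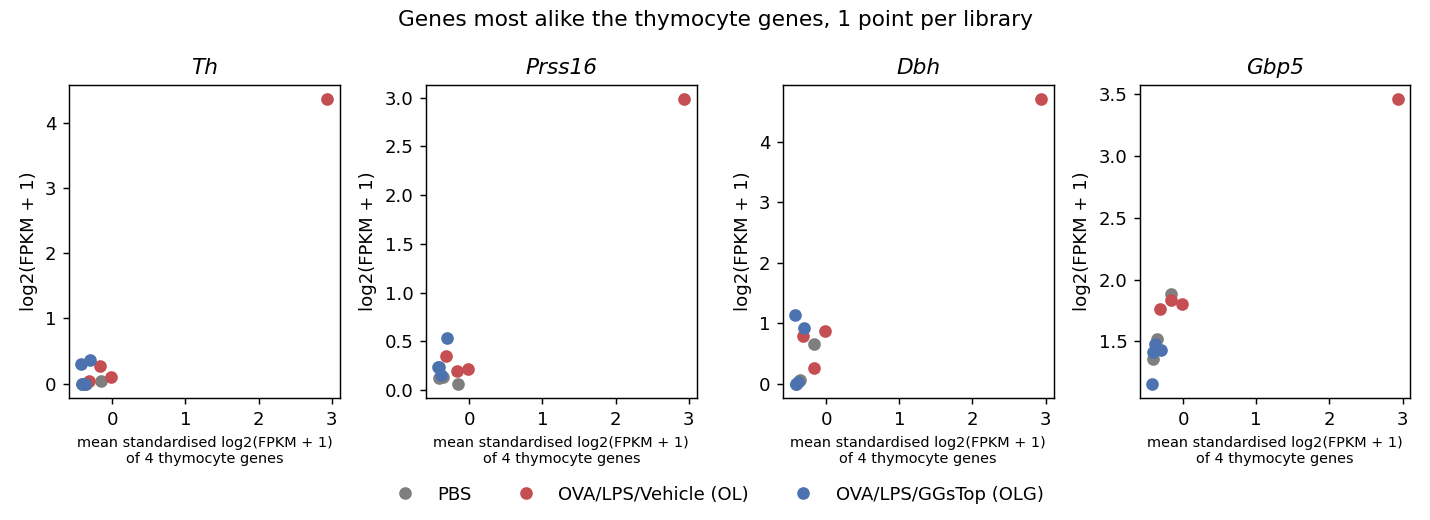
Log2(FPKM + 1) of Th, Prss16, Dbh and Gbp5 (vertical axis) against the mean standardised level of Rag1, Rag2, Dntt and Themis (horizontal axis), with a point for each of the 11 libraries coloured by group. OL 12 lies alone at the upper right at 2.94 on the horizontal axis, and the other 10 libraries lie between -0.421 and -0.0178.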

How the data were processed

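RNA of the airway was sequenced in 11 libraries (PBS 3, OL 4, OLG 4) after poly-T selection. The authors deposited FPKM, with 1 column per library. The submitters' processing notes name cutadapt 1.15, HISAT2 2.0.5, HTSeq 0.9.1 and the build mm39; the annotation and the strand setting are not given in the sources used here. Of 21899 identifiers, 21795 were found in GENCODE M21 (GRCm38), whose coordinates are used. FPKM times merged exon length gave whole fragments (within 0.02) for 97.6 to 97.8% of values under 200 fragments, and for all values of the 6 genes. The Poisson and binomial intervals rest on these fragments and cover counting error only. Nothing used here says that replicates came from separate animals, so p-values measure only the spread between these libraries, which may be technical.

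Genes that averaged 0.5 FPKM or more over the libraries (14004) were fitted as log2(FPKM + 1) with limma 3.58.1 (R 4.3.3, all 11 libraries, mean-variance trend, two-sided, Benjamini-Hochberg over all genes, called under 0.05). Lower genes have fold changes from a fit of all genes and no p-value. The fit was checked on simulated data. The study tested counts, which are not used here.

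The 6 genes and the gene lists were chosen with earlier results of these data known. Named were the 6 genes, from each list the 3 highest by mean and up to 5 called genes, defining markers at 0, and the 10 genes most alike. Other genes, such as Lck, Lat, Cd3g, Tcf7, Satb1, Bcl11b, Tbata, Vpreb1, Igll1 and B230118H07Rik, were chosen after their values were seen. Trac, Trbc1, Trbc2, Ighm and Ighd were not analysed here. Some genes, such as Tespa1 and Cd3e, stand in more than 1 list. Some genes that this rule names are not reported here.

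The labels do not link PBS and OLG libraries of the same number. Deviations of libraries with the same number correlated at r = 0.367, 0.427 and 0.428, but other pairs ran from -0.693 to 0.637. These values thus do not show a pairing, and the number was used as a block in 1 alternative fit only. Promoter windows are from RefSeq. Alternatives were a pseudocount of 0.1, other minima, rescaling, removal of a GC spline (5 degrees of freedom), array weights, no trend, only the groups compared and each library left out. Python 3.11.15, pandas 2.3.3, scipy 1.17.1 and matplotlib 3.10.9 were used.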

Additional observations from a re-analysis of the deposited data

Results flagged for a closer look

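Of 80 genes named with a level, 26 had a library in the OL or OLG group whose gap to the next exceeded Dixon's 95% critical value for 4 libraries, out of 160 gene and group pairs. Chance gives about 1 in 20 groups, but the count cannot be read against that share, since the 6 genes and most others that stood apart were chosen with their level in OL 12 known. In 24 of the 26 this library was OL 12, at the top of its group. It held the highest Rag1 (8.53 FPKM), Rag2 (1.11), Dntt (13.8), Ptcra (0.151) and Arpp21 (0.448) of the OL group. The value of Ptcra rests on 3 fragments. Themis did not pass this limit.

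Among the other thymocyte genes, Cd8a (16.0 FPKM), Cd8b1 (21.1), Ccr9 (2.28), Sh2d1a (1.02) and Myb (6.05) stood apart in OL 12 in the same way. Of the thymic epithelium genes, Prss16 (6.91 FPKM), Psmb11 (0.781), Tbata (9.25) and Ccl25 (3.35) did so. The genes named from the rankings of likeness did so too, with Th (19.5 FPKM), Ddc (12.7), Gbp5 (10.001), Dbh (25.1), Slc18a2 (7.61), Omp (3.55), Gm4070 (2.30), Tgtp1 (6.06), Gm12185 (2.36) and Cd274 (19.7) beside Prss16. These genes had been ranked for that shape, so their number is not a separate result. Cd5 had 1.27 FPKM in OLG 2 and was lower in the other OLG libraries. Foxn1 had 0.0429 FPKM in OLG 2 and was lower in the other OLG libraries. The gene pairs share libraries and are not independent.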

How the results depend on the processing

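The counts of genes called depended on the libraries far more than on the pseudocount, a minimum mean of 1 FPKM or the mean-variance trend. For OL against PBS (5327 calls), GC removal gave 2910 and array weights 7916. Leaving out 1 library gave 3064 to 6440 for OL against PBS, the lowest without PBS 3. For OLG against OL (1220), no minimum mean gave 634, the same median 698, the same FPKM total 2181, GC removal 56, only the groups compared 3525 and array weights 5214. Leaving out 1 library gave 24 to 1052: 739 without OL 12, 62 without OL 34, 35 without OL 56, 235 without OL 78, 24 without OLG 1, 361 without OLG 2 and 103 without OLG 3. For OLG against PBS (403), no minimum mean gave 53, only the groups compared 39 and array weights 2557. The replicate block over the 6 libraries numbered 1 to 3 gave 62, and the same 6 libraries without the block, chosen after seeing the data, gave 14. Leaving out 1 library gave 29 to 1597: 29 without PBS 1, 1597 without PBS 2, 56 without PBS 3, 36 without OLG 1, 143 without OLG 2, 777 without OLG 3 and 200 without OLG 4. The cause was not tested.

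Of the calls, 41.9% were higher in OL against PBS and 21.2% with the same FPKM total, 79.2% in OLG against OL, and 49.3%, 92.9% and 60.7% with the same median, the same total and GC removal, and 71.5% in OLG against PBS and 50.7% with the same total. The same total moved the median of all genes by more than 0.1, to -0.15 in OL against PBS, and to 0.11 in OLG against OL. Of 65 calls of listed genes, none changed direction under these scalings, and 5, 10 and 33 lost their call with the same median, the same total and GC removal. Of the fold changes of the 6 genes under all alternatives, 289 moved by less than the larger spread between replicates of the groups compared, and 17 by more. Of the 17, 12 came with a pseudocount of 0.1, where Themis differed by 1.18 in OL against PBS, and 5 with GC removal. The 289 do not show stability. Other minima, no trend and only the groups compared cannot change these fold changes. The spread in OL comes mostly from OL 12. Leaving out OL 12 therefore counted as less, although Rag1 went from 0.75 to -0.06 in OL against PBS. At these depths levels under 3 fragments cannot be ordered.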
